A study of Arabidopsis thaliana with 12 samples.

Results

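The genes of jasmonate synthesis were followed across Arabidopsis thaliana seedlings given L-glutamate (L-Glu) or urea. They were 10 genes named by their locus: the lipoxygenase genes LOX2 (AT3G45140), LOX3 (AT1G17420), LOX4 (AT1G72520) and LOX6 (AT1G67560), the allene oxide synthase gene AOS (AT5G42650), the allene oxide cyclase genes AOC1 (AT3G25760), AOC2 (AT3G25770) and AOC3 (AT3G25780), the reductase gene OPR3 (AT2G06050) and the conjugating enzyme gene JAR1 (AT2G46370). Of these, 9 had a row among the 14897 genes of the deposited table, and LOX2 was not analysed here. RNA sequencing of total RNA was done on whole seedlings, 14 days old, grown in liquid culture under continuous light. The 4 groups were the mutant sid2 given 20 mM L-Glu, the wild type Col-0 given 20 mM L-Glu, sid2 given 20 mM urea and Col-0 given 20 mM urea, each after 48 h and each with 3 libraries. sid2 is defective in SID2 (ICS1), the isochorismate synthase gene of salicylic acid synthesis, and the labels name no allele. No untreated group was analysed here, so every L-Glu effect is relative to urea.

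Jasmonates are plant hormones of wounding, defence and development that are made from linolenic acid of plastid membranes. In the plastid a 13-lipoxygenase oxygenates the fatty acid, allene oxide synthase turns the product into an unstable epoxide, and allene oxide cyclase closes its ring to 12-oxophytodienoic acid. In the peroxisome OPR3 reduces this compound and β-oxidation shortens its side chain to jasmonic acid, which JAR1 then joins to isoleucine in the cytosol to give the active hormone. Several of these genes are known to be induced by the hormone itself, and salicylic acid is known to counteract parts of the jasmonate response in Arabidopsis leaves.

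The values are the authors' normalized signal, a read abundance per gene for which the normalization method is not given in the sources used here. Library totals were 3900394 to 4419987 with L-Glu and 2564533 to 3051489 with urea, and the number of reads behind them is unknown. Whether libraries of one group derive from separate cultures is not labelled, so p-values measure only how these libraries vary, which may be technical. The titles name sid2 and were followed, although a separate label field calls all 12 samples Col-0. The lowest mean of any gene over the 12 libraries was 6.93, so a gene that is low with urea may have a row only because it is high with L-Glu. Of the 9 genes LOX4, at 13.8 to 35.6 with urea, came nearest to this level, and a count of risen genes among those with a row may be too high for the full lists. The SID2 transcript was present in sid2, with 7434, 5421 and 7339.6 with L-Glu against 9615, 7461 and 10896 in Col-0, and 43.3, 29.8 and 65.4 with urea against 98.3, 100.1 and 89.6 in Col-0. It was lower in every sid2 library than in every Col-0 library of the same treatment, but neither difference was called (adjusted p = 0.197 with L-Glu and 0.0745 with urea, limma). With the replicate number as a block, which paired the urea libraries, the second was called (adjusted p = 0.048), as it was after scaling to one total (-1.19, adjusted p = 0.0228), after quantile normalization (adjusted p = 0.0394) and without library 3 of sid2 given urea (-1.33, adjusted p = 0.0368). On the principal components, library 1 of Col-0 given urea and library 2 of Col-0 given L-Glu stood apart from the others of their groups. Results that change without this pair of libraries are given with and without them.

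The cyclase genes AOC1, AOC2 and AOC3 lie next to each other on chromosome 3 in one orientation, within 7312 bases of the RefSeq TAIR10.1 assembly, with gaps of 1330 and 1088 bases. AOC1 spans 9403779 to 9405338, AOC2 spans 9406669 to 9408071 and AOC3 spans 9409160 to 9411090. Their coding sequences were identical at 90.3% of aligned bases between AOC1 and AOC2, at 82.7% between AOC1 and AOC3 and at 82.4% between AOC2 and AOC3. Exact runs of 50 bases that could draw reads of more than one gene made up 2.1% of AOC1 and 1.49% of AOC3 for that pair. AOC2 and AOC3 shared 1 such run (0.08% of AOC2 and 0.06% of AOC3), and AOC1 and AOC2 shared 0. LOX3 and LOX4, both on chromosome 1, were 80.6% identical and shared 0 such runs. LOX3 and LOX6 were 61.9% identical, and LOX4 and LOX6 were 62.4% identical. No other annotated gene overlapped any of the 10 genes.

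The 250 bases before the annotated start of the genes with the 3 largest L-Glu effects are shown here, read from RefSeq TAIR10.1 and written along the gene. Capitals mark matches to 4 motifs searched on both strands: CACGTG, its variant CACATG, the core TTGAC bound by WRKY factors and the core TGACG bound by TGA factors.
LOX4 (chr1:27308263-27308512, plus strand): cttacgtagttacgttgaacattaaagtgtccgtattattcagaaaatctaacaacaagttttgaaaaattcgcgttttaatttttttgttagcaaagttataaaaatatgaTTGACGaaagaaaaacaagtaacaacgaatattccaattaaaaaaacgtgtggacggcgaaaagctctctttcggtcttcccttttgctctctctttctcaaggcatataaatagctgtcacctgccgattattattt
LOX3 (chr1:5977073-5977322, plus strand): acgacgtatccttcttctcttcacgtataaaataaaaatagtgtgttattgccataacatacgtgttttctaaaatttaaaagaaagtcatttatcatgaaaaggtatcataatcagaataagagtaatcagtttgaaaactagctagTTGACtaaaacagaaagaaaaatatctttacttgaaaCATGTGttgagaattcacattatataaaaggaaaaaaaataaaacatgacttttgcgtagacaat
AOC3 (chr3:9408910-9409159, plus strand): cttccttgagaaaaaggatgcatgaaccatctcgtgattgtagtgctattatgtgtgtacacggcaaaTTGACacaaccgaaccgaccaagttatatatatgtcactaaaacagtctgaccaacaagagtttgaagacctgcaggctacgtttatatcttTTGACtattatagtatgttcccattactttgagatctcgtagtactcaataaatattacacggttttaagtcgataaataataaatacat
In the LOX4 window the TTGAC and TGACG matches overlap in the single run TTGACG. LOX3 held 1 TTGAC match and 1 CACATG match on the reverse strand, and AOC3 held 2 TTGAC matches. Across the 10 genes TTGAC was found before 7, CACATG before 3, TGACG before 2 and CACGTG before 1. The shares among 27443 windows of the same length before annotated protein-coding genes were 44.9%, 11.1%, 18.6% and 6.5%. A match is a description of these letters and not a binding site.

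The windows of AOC1 and AOC2 are shown because these neighbours, the most alike in coding sequence, were called in opposite directions with L-Glu in sid2. Capitals mark their longest shared run, 19 bases long, and neither window held any of the 4 motifs.
AOC1 (chr3:9403529-9403778, plus strand): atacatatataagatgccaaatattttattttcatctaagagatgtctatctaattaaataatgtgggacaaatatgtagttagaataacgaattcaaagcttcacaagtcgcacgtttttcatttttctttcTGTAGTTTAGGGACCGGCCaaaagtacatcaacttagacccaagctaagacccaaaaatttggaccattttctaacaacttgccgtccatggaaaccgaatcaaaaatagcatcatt
AOC2 (chr3:9406419-9406668, plus strand): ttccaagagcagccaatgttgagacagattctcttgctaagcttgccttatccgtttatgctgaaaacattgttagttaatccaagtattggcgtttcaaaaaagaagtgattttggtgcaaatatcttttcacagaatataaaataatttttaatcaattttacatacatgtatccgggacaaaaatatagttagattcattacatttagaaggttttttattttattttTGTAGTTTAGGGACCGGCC
The shared run began 117 bases before the start of AOC1 and 19 bases before that of AOC2. The longest run shared with the AOC3 window was 8 bases for AOC1 and 9 bases for AOC2.

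With L-Glu, transcripts of most of the measured steps from the lipoxygenases to OPR3 were higher than with urea in both genotypes, whereas AOC2 was lower. Of the 9 measured genes 7 rose and 1 fell in sid2 and 7 rose and 1 fell in Col-0, by limma with Benjamini-Hochberg adjustment over all 14897 genes at 0.05. In the same tests 64.4% of all genes were called in sid2 (32.0% higher and 32.4% lower) and 60.1% in Col-0 (29.7% higher and 30.3% lower). The median log2 fold change of the 9 genes was 1.65 in sid2 and 2.26 in Col-0, while that of all genes was -0.02 in sid2 and -0.05 in Col-0. The gene not called was JAR1 in sid2 and AOC1 in Col-0. The libraries of the 2 treatments did not overlap for 8 of the 9 genes in sid2 and 6 of 9 in Col-0, and for 71.9% and 61.8% of all genes in these comparisons. These bulk values cannot tell apart fewer cells of a type and less RNA per cell.

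**Figure D1:**
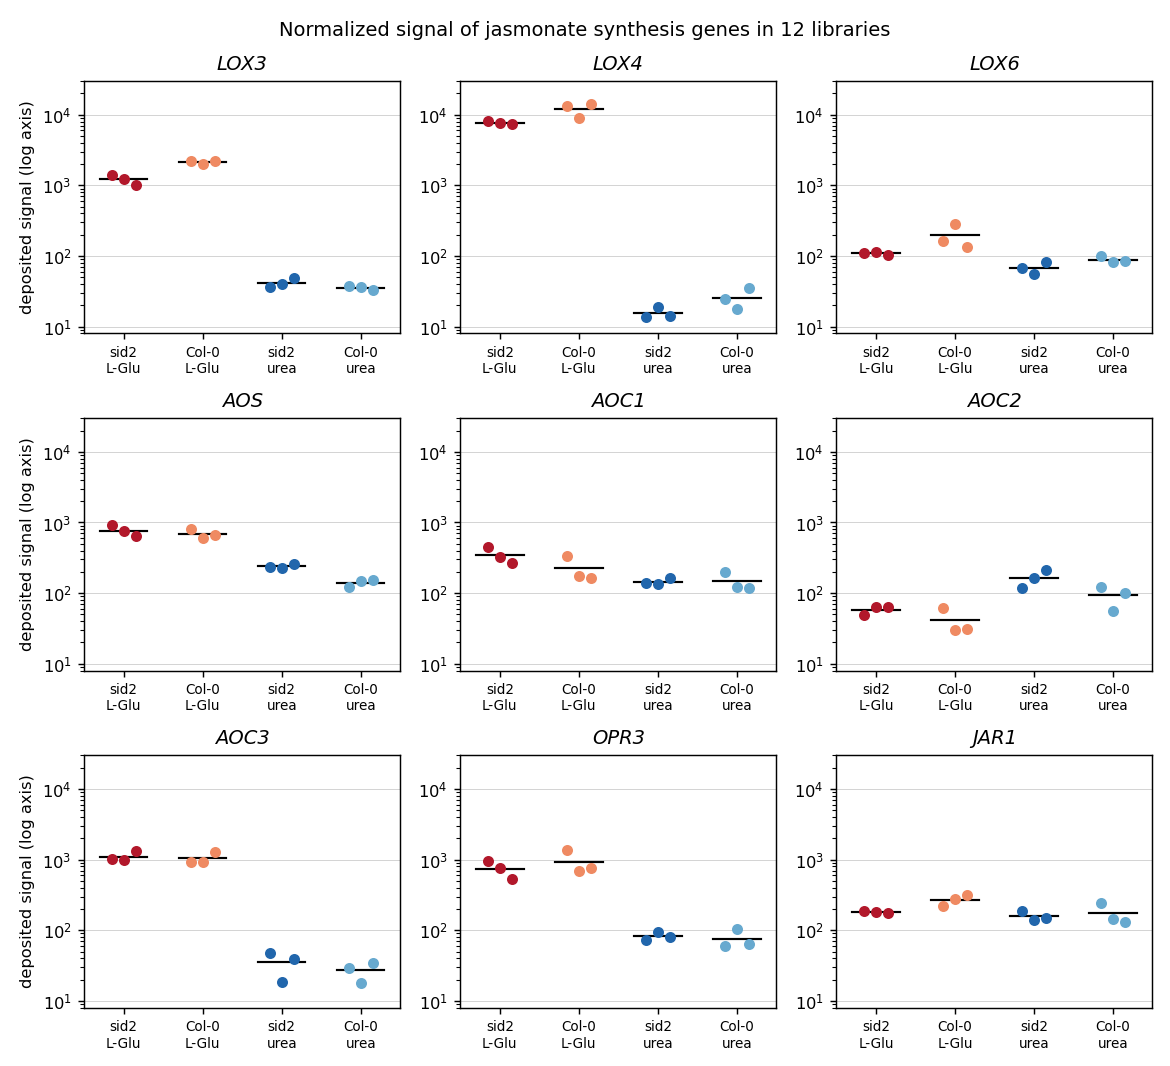
Deposited normalized signal (log axis) of the 9 measured genes in each library, with points for single libraries and lines for group means, in sid2 given L-Glu, Col-0 given L-Glu, sid2 given urea and Col-0 given urea. LOX4 lies between 7277 and 14060.4 in all L-Glu libraries and between 13.8 and 35.6 in all urea libraries, whereas AOC2 is lower with L-Glu and JAR1 lies between 132 and 313.

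Among the lipoxygenase genes LOX4, which encodes a 13-lipoxygenase, responded most. LOX4 had signals of 8213, 7665 and 7277 in sid2 given L-Glu against 13.8, 18.8 and 14.1 in sid2 given urea. In Col-0 it had 13394, 8938 and 14060.4 with L-Glu against 24.4, 17.5 and 35.6 with urea. All 6 L-Glu libraries thus lay far above all 6 urea libraries, and the means differed 496-fold in sid2 and 469.5-fold in Col-0. The log2 fold change was 8.67 in sid2 (SE 0.225, adjusted p = 6.38e-16) and 8.71 in Col-0 (SE 0.225, adjusted p = 4.57e-16, limma). Only 18 of all genes in sid2 and 16 in Col-0 had a higher log2 fold change.

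LOX3, the close relative of LOX4, had 1394, 1227 and 1026 in sid2 given L-Glu against 36.7, 39.5 and 48.7 with urea. In Col-0 the LOX3 signal was 2232, 1976 and 2194 with L-Glu against 37.3, 36.1 and 32.8 with urea. The groups did not overlap in either genotype, and with L-Glu the 3 Col-0 libraries also lay above the 3 sid2 libraries. LOX3 rose by 4.75 on the log2 scale in sid2 (SE 0.175, adjusted p = 3.50e-14) and by 5.78 in Col-0 (SE 0.175, adjusted p = 3.14e-15, limma).

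LOX6 encodes the 13-lipoxygenase that is known for the first, rapid jasmonate formation after wounding. It had 110.2, 112 and 104 in sid2 given L-Glu against 66.8, 56.0 and 82.6 with urea, and 165, 285 and 136 in Col-0 given L-Glu against 99.2, 83.2 and 84.6 with urea. The L-Glu libraries were higher in both genotypes without overlap, with means 1.59-fold higher in sid2 and 2.19-fold higher in Col-0, and library 2 of Col-0 given L-Glu was the highest. LOX6 rose by 0.66 in sid2 (SE 0.239, adjusted p = 0.0219) and by 1.04 in Col-0 (SE 0.239, adjusted p = 0.00104, limma). After scaling of every library to the same total LOX6 was not called, at 0.15 in sid2 (adjusted p = 0.629) and 0.39 in Col-0 (adjusted p = 0.184). The call in sid2 was also ended without library 1 or 2 of sid2 given urea (adjusted p = 0.0512 and 0.0953) and without library 1 or 2 of sid2 given L-Glu (adjusted p = 0.0535 and 0.0574).

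AOS, a single-copy gene in Arabidopsis that commits the lipoxygenase product to jasmonate, had 909, 752 and 637 in sid2 given L-Glu against 236, 224 and 262 with urea. In Col-0 it had 801, 604 and 670.1 with L-Glu against 123, 148 and 151 with urea. The treatments did not overlap in either genotype. AOS rose by 1.65 in sid2 (SE 0.183, adjusted p = 2.22e-07) and by 2.26 in Col-0 (SE 0.183, adjusted p = 2.57e-09, limma).

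The 3 neighbouring allene oxide cyclase genes moved in different ways. AOC3 had 1019.9, 995 and 1305 in sid2 given L-Glu against 47.5, 18.6 and 39.2 with urea, and 928, 914 and 1294 in Col-0 given L-Glu against 28.8, 18.0 and 34.6 with urea. All L-Glu libraries lay above all urea libraries. AOC3 rose by 4.92 in sid2 (SE 0.275, adjusted p = 1.07e-11) and by 5.12 in Col-0 (SE 0.275, adjusted p = 5.75e-12, limma).

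AOC1 had 448, 326 and 270.0 in sid2 given L-Glu against 139, 135 and 162 with urea, without overlap, and rose by 1.21 (SE 0.264, adjusted p = 0.000553, limma). In Col-0 it had 332, 175 and 166 with L-Glu against 202, 121 and 119.6 with urea, where the groups overlapped and the estimate of 0.56 was not called (SE 0.264, adjusted p = 0.0736, limma). Without the 2 libraries that stood apart the Col-0 estimate was 0.95 (adjusted p = 0.0066), and it was also called without library 1 of Col-0 given urea alone (0.81, adjusted p = 0.012) and without library 2 or 3 of Col-0 given L-Glu (adjusted p = 0.0493 and 0.0359). With each library scaled to one total it was -0.08 (adjusted p = 0.783).

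AOC2 went the other way. It had 48.4, 64.5 and 62.6 in sid2 given L-Glu against 117, 164 and 214 with urea, and 62.2, 29.8 and 31.5 in Col-0 given L-Glu against 124, 56.6 and 101 with urea. The sid2 groups did not overlap, and in Col-0 library 1 with L-Glu lay above library 2 with urea. AOC2 fell by 1.41 on the log2 scale in sid2 (SE 0.307, adjusted p = 0.000531) and by 1.13 in Col-0 (SE 0.307, adjusted p = 0.00384, limma). Without the 2 libraries that stood apart the Col-0 value was -0.72 and was not called (adjusted p = 0.0749).

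OPR3, the peroxisomal 12-oxophytodienoate reductase gene, had 942, 763 and 528 in sid2 given L-Glu against 73.0, 93.1 and 80.9 with urea. In Col-0 OPR3 had 1365, 682 and 764 with L-Glu against 59.6, 103 and 64.4 with urea. All L-Glu libraries lay above all urea libraries. OPR3 rose by 3.09 in sid2 (SE 0.266, adjusted p = 6.31e-09) and by 3.54 in Col-0 (SE 0.266, adjusted p = 8.85e-10, limma).

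JAR1, the gene of the enzyme that makes jasmonoyl-isoleucine, had signals between 132 and 313 over all libraries. It had 189, 180.3 and 177 in sid2 given L-Glu against 186, 140.5 and 150.5 with urea, and 218, 280.1 and 313 in Col-0 given L-Glu against 246, 144 and 132 with urea. The treatments overlapped in both genotypes. The estimate of 0.20 in sid2 was not called (SE 0.221, adjusted p = 0.437), and JAR1 rose by 0.66 in Col-0 (SE 0.221, adjusted p = 0.0147, limma). The Col-0 call was ended by scaling each library to one total (0.01, adjusted p = 0.958), by quantile normalization (0.49, adjusted p = 0.0809) and without library 2 or 3 of Col-0 given urea (adjusted p = 0.0631 and 0.083) or library 3 of Col-0 given L-Glu (adjusted p = 0.0632).

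The scale of the deposited values bears on the small effects. Scaling each library to one total moved the median log2 fold change of all genes to -0.52 in sid2 and -0.66 in Col-0, and of the called genes 31.2% in sid2 and 26% in Col-0 were then higher, against 49.6% and 49.5% on the deposited scale. Relative to that median LOX6 was at 0.67 in sid2 and 1.06 in Col-0, JAR1 at 0.20 and 0.68, and AOC1 at 1.21 and 0.58. Under that scaling the calls of LOX3, LOX4, AOS, AOC2, AOC3 and OPR3 were kept in both genotypes, with LOX4 at 8.19 in sid2 and 8.09 in Col-0 and AOC2 at -1.92 and -1.75.

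**Figure D2:**
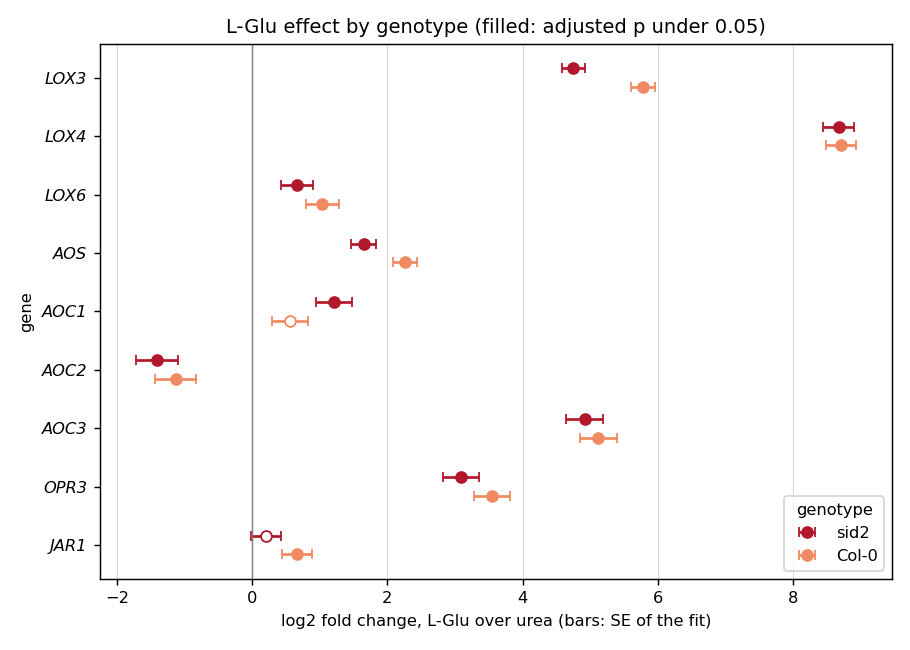
Log2 fold change of L-Glu over urea for each measured gene in sid2 and in Col-0, with bars for the standard error of the fit and filled points for an adjusted p under 0.05. LOX4 stands at 8.67 in sid2 and 8.71 in Col-0, LOX3 is the gene whose effects lie farthest apart (4.75 in sid2 and 5.78 in Col-0), and AOC2 is the one gene below 0.

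Levels of different genes were compared per kb of the longest annotated transcript. In sid2 given L-Glu the order of mean signal per kb was LOX4, AOC3, OPR3, LOX3, AOS, AOC1, JAR1, AOC2 and LOX6, between 2534 ± 154 (SD, n = 3) for LOX4 and 32.6 ± 1.21 for LOX6. Neighbours in that order overlapped between libraries from AOC3 to AOC1. In Col-0 given L-Glu the order was LOX4, LOX3, AOC3, OPR3, AOS, AOC1, JAR1, LOX6 and AOC2, between 3983 ± 914 for LOX4 and 31.7 ± 14.0 for AOC2. There LOX3, AOC3 and OPR3 overlapped, as did LOX6 and AOC2. LOX4 stood at rank 152 of 14819 genes with an annotated length in sid2 and at rank 86 in Col-0.

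With urea LOX4 was last in both genotypes. In sid2 it was AOC2, AOC1, AOS, JAR1, OPR3, AOC3, LOX6, LOX3 and LOX4, between 127 ± 37.4 for AOC2 and 5.11 ± 0.926 for LOX4. In Col-0 it was AOC1, JAR1, AOC2, AOS, OPR3, LOX6, AOC3, LOX3 and LOX4, between 124 ± 39.7 for AOC1 and 8.48 ± 2.99 for LOX4. LOX4 was at rank 14365 in sid2 and 13653 in Col-0 there. Neighbours overlapped among the first 3 genes and between AOC3 and LOX6 in sid2, and among the first 5 and the last 3 in Col-0.

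Shares were taken among LOX3, LOX4 and LOX6 and among AOC1, AOC2 and AOC3, so LOX2 and AOC4 are outside the sums and the shares are not those of the whole steps. Of the summed signal per kb of LOX3, LOX4 and LOX6, LOX4 held 85.6% ± 1.04 in sid2 given L-Glu, 83.7% ± 3.13 in Col-0 given L-Glu, 13.3% ± 3.603 in sid2 given urea and 18.1% ± 5.72 in Col-0 given urea (SD, n = 3 each). LOX6 held 1.104% and 1.35% with L-Glu in sid2 and Col-0, against 52.2% and 57.2% with urea. The sum itself was 2960.4 per kb in sid2 and 4732 in Col-0 given L-Glu, against 39.1 and 46.6 with urea.

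AOC3 held 66.3% ± 7.26 of the summed signal per kb of AOC1, AOC2 and AOC3 in sid2 given L-Glu and 74.1% ± 9.99 in Col-0 given L-Glu, against 7.96% ± 3.89 in sid2 given urea and 7.86% ± 2.30 in Col-0 given urea. AOC2 held 4.51% ± 0.877 and 3.72% ± 1.49 with L-Glu in sid2 and Col-0, against 46.4% ± 7.08 and 33.6% ± 5.58 with urea. AOC1 held 29.2% and 22.2% with L-Glu, against 45.6% and 58.6% with urea. The sum was 1004 per kb in sid2 and 850 ± 116 in Col-0 given L-Glu, against 271 and 212 with urea. The few identical runs between AOC1 and AOC3, and the 1 between AOC2 and AOC3, could shift reads within these pairs. How reads that match more than one gene were counted is not stated.

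**Figure D3:**
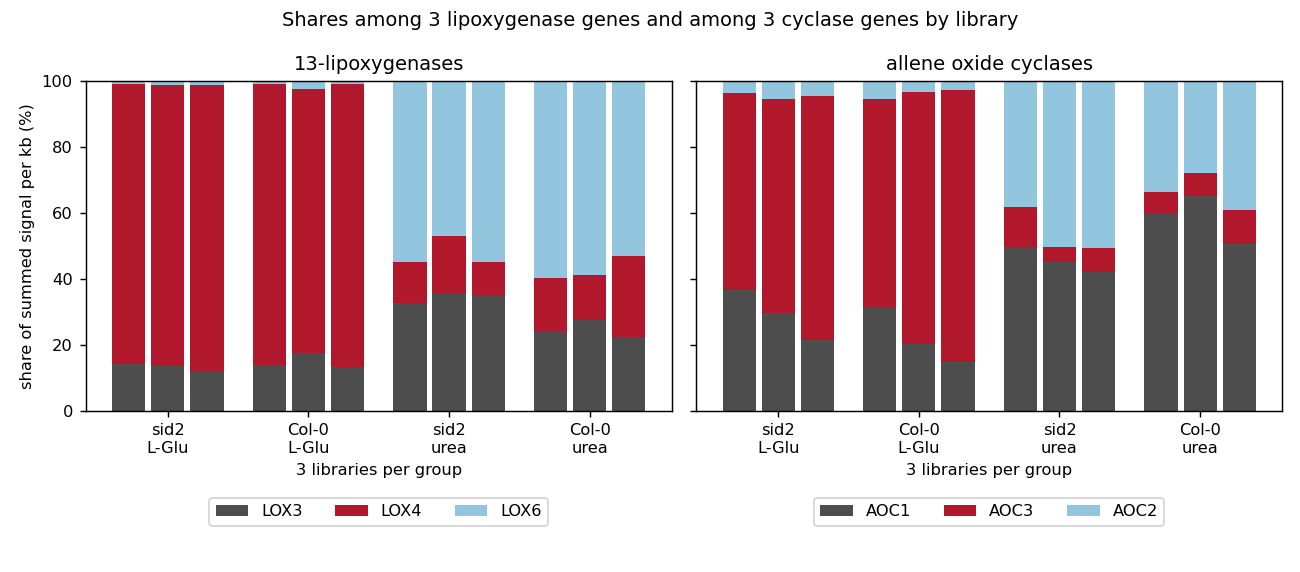
Share (%) of each gene in the summed signal per kb of transcript, one bar for each library, for the lipoxygenase genes LOX3, LOX4 and LOX6 (left) and the cyclase genes AOC1, AOC2 and AOC3 (right). LOX4 and AOC3 fill most of every L-Glu bar, whereas in every urea bar LOX6 has the largest share of the lipoxygenase genes and AOC1 and AOC2 together fill most of the cyclase bar.

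The interaction asked whether the L-Glu effect differed between the genotypes, as the effect in sid2 minus that in Col-0. LOX3 was the one gene of the 9 called, with a difference of -1.03 (SE 0.248, adjusted p = 0.0393, limma), and 1.95% of all genes were called. The median over the 9 genes was -0.38, against -0.04 over all genes. The call was kept in 1 of the 12 omissions of a single library, without library 1 of Col-0 given urea, and lost in the other 11, with adjusted p between 0.0299 and 0.117 over the 12. Scaling to one total (adjusted p = 0.0578), quantile normalization (adjusted p = 0.0671) and a variance model without a trend (adjusted p = 0.0748) ended it too. The next genes were AOS at -0.62 (SE 0.258, adjusted p = 0.225) and AOC1 at 0.65 (SE 0.374, adjusted p = 0.394). LOX4 had a difference of -0.04 (SE 0.318, adjusted p = 0.966), which was 0.09 after scaling to one total. Of the genes called 65.6% had a positive difference, and 82.9% after scaling to one total.

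With L-Glu, LOX3 was lower in sid2, at 1215 ± 184 against 2134 ± 138 in Col-0 (SD, n = 3 each), or -0.82 on the log2 scale (SE 0.175, adjusted p = 0.00527, limma). This call held in all 22 alternatives, with adjusted p up to 0.0337. Some of these could change little. Leaving out a urea library kept the estimates of this comparison and altered only the shared variance, and the run without a filter repeated the main fit. LOX6 was also lower in sid2, at 109 ± 4.04 against 195 ± 79.5 in Col-0 (log2 fold change -0.75, SE 0.239, adjusted p = 0.0449, limma). That call held in 8 of 22 alternatives and in 3 of 12 omissions of a single library, with adjusted p from 0.0158 to 0.247. The highest of these came without library 2 of Col-0, which had the value of 285 (log2 fold change -0.44). Without the 2 libraries that stood apart LOX6 was at -0.44 (adjusted p = 0.19). LOX4 was at 7718 ± 470.0 in sid2 against 12131 ± 2785 in Col-0, without overlap but not called (-0.63, SE 0.225, adjusted p = 0.0715). Without the 2 libraries that stood apart it was -0.83 and called (adjusted p = 0.0198), as it was with a pseudocount of 5 scaled units (-0.62, adjusted p = 0.0399).

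Of the 9 genes 0 were thus higher and 2 lower in sid2 than in Col-0 given L-Glu, where 13.3% of all genes were called (7.27% higher and 6.04% lower). The 4 genes LOX3, LOX4, LOX6 and JAR1 had groups that did not overlap, as did 33.8% of all genes. JAR1 was at 182 ± 6.21 in sid2 and 270.4 ± 48.12 in Col-0 (-0.54, SE 0.221, adjusted p = 0.109), and was called without library 1 of Col-0 given urea (adjusted p = 0.0374). That library is not part of this comparison, so the estimate stayed at -0.54 and only the variance shared by all groups changed. The estimates for AOS (0.14), AOC1 (0.67), AOC2 (0.54), AOC3 (0.09) and OPR3 (-0.30) were not called, with adjusted p from 0.0997 for AOC1 to 0.864 for AOC3. AOC1 was called without library 1 of Col-0 given L-Glu (0.99, adjusted p = 0.0174), and OPR3 was then at 0.00.

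With urea, limma called 0 of the 9 genes between sid2 and Col-0, where 0.248% of all genes were called. Of the called genes 27% were higher, and 13.3% after scaling to one total. AOS, LOX4 and AOC2 had an unadjusted p under 0.05, as did 6.33% of all genes. AOS was at 240.3 ± 19.4 in sid2 against 141 ± 15.5 in Col-0, without overlap (log2 fold change 0.76, SE 0.183, adjusted p = 0.117). LOX6 was the other gene of the 9 whose groups did not overlap, as did those of 11.3% of all genes (-0.37, SE 0.239, adjusted p = 0.859). AOC2 was at 165 ± 48.7 against 93.9 ± 34.3 (0.82, SE 0.307, adjusted p = 0.59) and LOX4 at 15.6 ± 2.82 against 25.8 ± 9.10 (-0.59, SE 0.225, adjusted p = 0.604), both with overlap. AOS was not called in any of 22 alternatives, with adjusted p from 0.0569 to 0.498. The genotype comparisons and the interaction use the same libraries as the L-Glu effects above.

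Within groups, single libraries were low for most of the genes. Library 3 of sid2 given L-Glu had the lowest value of 7 of the 9 genes, and library 2 of Col-0 given L-Glu the lowest of 6. These libraries also had the lowest total signal of their groups, at 4080154 and 3900394. The share of all genes that were lowest there was not computed, so these counts are not a trait of the 9 genes. The coefficient of variation of a gene within a group ran from 3.41% for JAR1 in sid2 given L-Glu to 44.3% for AOC2 in Col-0 given L-Glu.

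Likeness of pattern was measured as the root mean square difference of log2 values, each gene centred on its mean over the 12 libraries. Among the 9 genes the closest pairs were LOX6 and JAR1, at 0.398, and LOX3 and AOC3, at 0.519, whereas LOX3 and LOX4 were 1.76 apart and AOC2 and AOC3 3.19 apart. Over all other genes, LOX4 was closest to WRKY46, a WRKY transcription factor gene, at 0.306, and next to the glutamate decarboxylase gene GAD4, at 0.391. LOX3 was closest to DAR6, at 0.220, AOC3 to the jasmonate repressor gene JAZ10, at 0.296, and AOS to the polyol transporter gene PMT6, at 0.187. JAR1 was closest to the DNA glycosylase gene DME, at 0.119. WRKY46 averaged 5588 in sid2 and 8464 in Col-0 given L-Glu against 8.92 and 14.6 with urea, levels that follow from its choice as the gene closest to LOX4.

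Steps before, beside and after the named enzymes were read from lists that were chosen with earlier results of these data known. Of 6 measured genes that supply linolenic acid (8 in the list) 1 rose and 4 fell in sid2, where 32.4% of all genes fell, and 0 rose and 4 fell in Col-0, where 30.3% fell. Their median log2 fold changes were -1.21 in sid2 and -1.19 in Col-0. The ω-3 desaturase genes that make linolenic acid all fell, with log2 fold changes in sid2 and in Col-0 of -1.58 and -1.61 for FAD3, -1.96 and -1.56 for FAD7, and -3.08 and -3.42 for FAD8. FAD8 had 9.70, 23.9 and 27.4 in sid2 given L-Glu against 153, 196 and 214 with urea, and 5.69, 9.08 and 26.9 in Col-0 given L-Glu against 232, 107 and 161 with urea. AT1G02660, annotated as an α/β-hydrolase, rose in sid2 (1.08, adjusted p = 0.000969) and was at -0.13 in Col-0 (adjusted p = 0.675), where the value was -0.78 and called after scaling to one total (adjusted p = 0.0049) and 0.21 without the 2 libraries that stood apart. AT3G62590, another hydrolase gene, was at -0.42 in sid2 (adjusted p = 0.143) and fell by 0.82 in Col-0 (adjusted p = 0.00786, limma). The Col-0 call of AT3G62590 was ended without library 2 of Col-0 given urea (adjusted p = 0.0584), and in sid2 it was called after scaling to one total (-0.92, adjusted p = 0.00315).

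Of 4 measured genes of other oxylipin enzymes (5 in the list), 2 rose in sid2 and 3 in Col-0, and 0 fell, while 32.0% of all genes rose in sid2 and 29.7% in Col-0. The 9-lipoxygenase gene LOX1 rose by 2.29 in sid2 and 3.08 in Col-0, and LOX5, also of a 9-lipoxygenase, by 2.39 and 1.72. The α-dioxygenase gene DOX1 was at 0.05 in sid2 (adjusted p = 0.893) and rose by 1.01 in Col-0 (adjusted p = 0.00409), where it had 1145, 2802 and 1513 with L-Glu against 613, 837 and 1148 with urea. Without the 2 libraries that stood apart its Col-0 value was 0.42 (adjusted p = 0.101), and it was 0.35 (adjusted p = 0.279) after scaling to one total and 0.04 (adjusted p = 0.922) after quantile normalization. AOC4, the fourth cyclase gene, was not called, at -0.00 in sid2 (adjusted p = 0.998) and 0.18 in Col-0 (adjusted p = 0.583). It had 22.8 to 31.4 in sid2 given L-Glu, 34.2 to 57.6 in Col-0 given L-Glu, 19.6 to 31.1 in sid2 given urea and 30.4 to 48.06 in Col-0 given urea.

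Of the 15 genes of peroxisomal steps 5 rose and 3 fell in sid2, and 6 rose and 4 fell in Col-0, with medians of 0.02 and 0.18. These counts are near the shares of all genes called, 64.4% in sid2 and 60.1% in Col-0. OPCL1, whose enzyme activates the OPR3 product for β-oxidation, rose by 4.73 in sid2 and 4.76 in Col-0. It had 1991, 2097 and 1479 in sid2 given L-Glu against 64.9, 79.1 and 55.9 with urea. OPR1 and OPR2, relatives of OPR3, rose by 4.81 and 4.80 in sid2 and by 4.09 and 3.47 in Col-0. The acyl-CoA oxidase gene ACX1 rose by 1.59 in sid2 and 1.23 in Col-0, and ACX2 by 1.57 and 0.74. The Col-0 value of ACX2 was not called with each library scaled to one total (0.08, adjusted p = 0.715) or after quantile normalization (0.11, adjusted p = 0.658). The thiolase gene KAT5 fell, at -1.89 in sid2 and -1.90 in Col-0.

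All 8 measured genes of jasmonate turnover (11 in the list) rose in both genotypes, with medians of 3.03 in sid2 and 2.65 in Col-0, while 32.0% of all genes rose in sid2 and 29.7% in Col-0. CYP94B3, whose enzyme hydroxylates jasmonoyl-isoleucine, rose by 3.03 in sid2 and 3.88 in Col-0, and ST2A, a sulfotransferase gene acting on hydroxyjasmonate, by 1.84 and 2.58. AT2G38240 and AT5G05600, annotated as oxygenases that depend on 2-oxoglutarate and iron, rose by 6.91 and 3.09 in sid2 and by 6.23 and 2.23 in Col-0. AT2G38240 had 1301, 1283 and 1030.4 in sid2 given L-Glu against 11.2, 3.08 and 6.94 with urea, so its urea mean of 7.06 lay close to the lowest gene mean of the table.

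Of 10 listed response genes 4 were measured, and 3 rose and 1 fell in sid2 while 2 rose and 1 fell in Col-0, where 64.4% and 60.1% of all genes were called. With 4 genes this count says little beyond those shares. The repressor gene JAZ1 rose by 4.76 in sid2 and by 3.90 in Col-0. JAZ10, another repressor gene of this family, averaged 366 in sid2 and 264 in Col-0 with L-Glu against 5.97 and 5.33 with urea. Both urea means lie below 6.93, the lowest mean of any gene in the table, so JAZ10 may have its row through its level with L-Glu. No p-value is printed for its rise for that reason. Its limma calls are nevertheless among the risen genes counted for this list in both genotypes, and the plot of fold changes by list includes it. These counts of risen genes may thus be too high for the full list. The jasmonate-responsive lectin gene JR1 fell by 0.78 in sid2 (adjusted p = 0.0109) and by 0.66 in Col-0 (adjusted p = 0.0291, limma). The JR1 call in Col-0 was ended without library 2 or 3 of Col-0 given urea (adjusted p = 0.0799 and 0.123) and without library 3 of Col-0 given L-Glu (-0.33, adjusted p = 0.223). ORA59, an ERF gene of the ethylene and jasmonate branch, rose by 0.99 in sid2 (adjusted p = 0.0275) and was at 0.78 in Col-0 (adjusted p = 0.082), with overlap in both. In Col-0 it was called without library 2 of Col-0 given urea (1.15, adjusted p = 0.0167). Its sid2 call was ended without library 1 or 3 of either sid2 group (adjusted p from 0.0586 to 0.159) and by scaling to one total (0.51, adjusted p = 0.215).

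Between sid2 and Col-0 given L-Glu, where 13.3% of all genes were called, LOX1 (-1.03, adjusted p = 0.00127), DOX1 (-1.40, adjusted p = 0.00321) and ST2A (-1.02, adjusted p = 0.0184) were lower in sid2. AT1G02660 (0.93, adjusted p = 0.021) and AT5G05600 (0.72, adjusted p = 0.0175) were higher in sid2 by the same limma fit, as was ACX2 at the edge of the threshold (0.59, adjusted p = 0.05 after rounding). Of the genes of these lists limma called 0 in the interaction and 0 between the genotypes with urea.

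**Figure D4:**
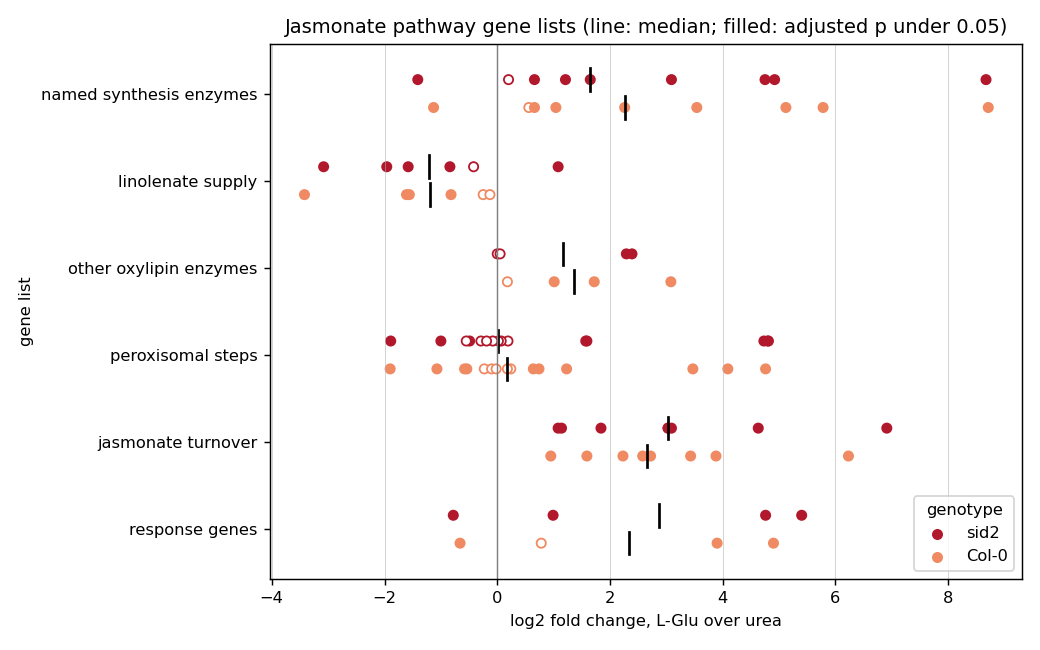
Log2 fold change of L-Glu over urea for each measured gene of the named synthesis enzymes and of 5 lists, with sid2 above Col-0, filled points for an adjusted p under 0.05 and a line at the median. All 8 turnover genes lie right of 0, linolenate supply has medians of -1.21 in sid2 and -1.19 in Col-0, and the 15 peroxisomal genes lie on both sides.

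The markers of leaf mesophyll and some of root and epidermis changed with treatment in the same libraries, and some markers differed between the genotypes. Their part in the results above was not tested. All 6 mesophyll markers were measured and all 6 fell with L-Glu in both genotypes, with a summed signal of 3170 to 4207 in sid2 and 1878 to 2442 in Col-0 given L-Glu, against 98694 to 126118 and 74778 to 88361 with urea. Of 8 root markers 6 were measured, with sums of 3482 to 4243 in sid2 and 4541 to 9338 in Col-0 given L-Glu, against 3007 to 3611 and 2658 to 4183 with urea. Most of each sum was PYK10, a β-glucosidase gene, at 3211 to 4059 in sid2 and 4282 to 9104 in Col-0 with L-Glu against 2473 to 3174 and 2335 to 3925 with urea. PYK10 rose in Col-0 (1.07, adjusted p = 0.00378) and was not called in sid2 (0.38, adjusted p = 0.266, limma). Of the 6 root markers 1 rose and 3 fell in sid2, and 2 rose and 0 fell in Col-0. Of all genes 64.4% were called in sid2 (32.0% higher and 32.4% lower) and 60.1% in Col-0 (29.7% higher and 30.3% lower). With 6 genes the root counts say little beyond these shares. The 3 epidermis markers summed to 167 to 194 in sid2 and 206 to 279.8 in Col-0 given L-Glu, against 378 to 387 and 336 to 428 with urea, and 2 of them fell in sid2 and 1 in Col-0. No value of any gene in the table was below 0.113, so that no marker with a row was at 0 says nothing about its presence. Of the 2 seed markers 0 had a row. Between sid2 and Col-0 given L-Glu, 3 mesophyll markers were called higher and 1 lower in sid2, and 1 epidermis marker higher and 2 lower. There 0 root markers were called, against 13.3% of all genes. With urea the root marker TIP2;3 was higher in sid2 (1.05, adjusted p = 0.0448, limma), where 0.248% of all genes were called. The mesophyll marker CAB2 was called in the interaction (-1.35, adjusted p = 0.0374, limma), as were 1.95% of all genes.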

How the data were processed

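The values, as deposited by the authors, are a normalized signal per gene in each of 12 RNA sequencing libraries. edgeR 3.22.3, HTSeq 0.6.0, TopHat and TopHat2 2.1.0 and the build TAIR10 appear, with no role given, in the submitters' processing notes, so how the deposited signal was normalized, its read depth and strand use are unknown. The values are neither whole counts nor CPM, so a count test was not used.

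Values were divided by 3.492, 1 scaled unit (3.49 deposited units) was added, and limma 3.58.1 (R 4.3.3) fitted 4 group means to the log2 values with an intensity trend and 8 residual degrees of freedom. This understates fold changes of weak genes. The filter, a mean of at least 1 scaled unit, took out 0 genes. Tests were two-sided with Benjamini-Hochberg adjustment over all 14897 genes at 0.05. Groups follow the sample titles. The members and lists were chosen with earlier results of these data known. The text names all members, SID2, up to 4 genes per list by p in Col-0, list genes called between genotypes and the genes closest in pattern, and prints a selection. DOX1, AT1G02660, AT3G62590 and ORA59 were added to the genes recomputed under the alternatives after their values were seen. Sequences and lengths came from RefSeq TAIR10.1, which held 14819 of the 14897 loci. Figures used pandas 2.3.3 and matplotlib 3.10.9, and coding sequences were aligned with Biopython 1.88. A planned share of LOX2 was replaced by that of LOX4, since LOX2 was not analysed here.

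Same-numbered libraries deviated together from their group means in sid2 between treatments (r = 0.116, 0.287 and 0.204 across genes) and with urea between genotypes (0.126, 0.219 and 0.196), so the numbers were read as pairs there. In Col-0 (0.086, 0.026 and 0.062) and with L-Glu (0.142, -0.11 and 0.112) they were not. The replicate number entered only the alternative with a block, and the main fit and its p-values left pairing out. Alternatives changed the pseudocount, the minimum, the scaling, the variance model, the libraries in the fit and the block, and left out each library in turn.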

Additional observations from a re-analysis of the deposited data

Results flagged for a closer look

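The L-Glu effect on LOX3 was called as different between the genotypes by the interaction term itself, but most alternatives ended this call. The effect was 4.75 on the log2 scale in sid2 and 5.78 in Col-0, a difference of -1.03 (SE 0.248, adjusted p = 0.0393, limma). In sid2 the 3 libraries given L-Glu had 1394, 1227 and 1026 and those given urea 36.7, 39.5 and 48.7. In Col-0 these values were 2232, 1976 and 2194 with L-Glu and 37.3, 36.1 and 32.8 with urea. The difference kept its sign in all 21 alternatives, at -1.13 to -0.91, and passed the threshold in 7 of them. Among these 7 was the run without a filter, which repeats the main fit. The call was kept in 1 of the 12 omissions of a single library, with adjusted p up to 0.117 (limma). It was lost under one total, quantile normalization and no intensity trend.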

How the results depend on the processing

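The counts of the 9 genes called for L-Glu against urea stayed within 1.5 times under every alternative, at 7 to 8 in sid2 and 7 to 9 in Col-0 when a library was left out. The cause of the changes below was not tested. Calls in the interaction were 0 of the 9 genes under one total, quantile normalization and no intensity trend, and 0 to 1 when a library was left out. Over all genes that count was 453 with a pseudocount of 5, 153 under quantile normalization, 143 with no trend, 498 with the replicate block, 191 without the 2 libraries that stood apart, and 9 to 367 when a library was left out, against 291. Between sid2 and Col-0 with urea it was 20 with a pseudocount of 5, 60 under one total, 12 with no trend, 5 with only the groups compared and 13 to 37 when a library was left out, against 37. With L-Glu it was 792 to 2649 when a library was left out, against 1983, and of the 9 genes 1 was called with a pseudocount of 0.1, under one total, quantile normalization and no trend, and 1 to 3 when a library was left out, against 2.

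Signs turned for values near 0. For L-Glu against urea these were, under one total, JAR1 in sid2 (-0.32), DOX1 in sid2 (-0.48), AOC1 in Col-0 (-0.08) and AOC4 in Col-0 (-0.43). Quantile normalization gave AOC4 0.02 and DOX1 -0.56 in sid2, and a pseudocount of 0.1 gave AOC4 0.00. Leaving out a library gave -0.19 to 0.10 for AOC4 and -0.07 to 0.15 for DOX1 in sid2, and -0.38 to 0.21 for AT1G02660 in Col-0, which was 0.21 without the 2 libraries that stood apart. In the interaction LOX4 was 0.05 with a pseudocount of 0.1 and 0.09 under one total. Leaving out a library gave -0.27 to 0.18 for LOX4, -0.51 to 0.03 for AOC2 and -0.56 to 0.04 for AOC3. Between genotypes with urea AOC1 was -0.09 under one total, -0.00 under quantile normalization and -0.10 to 0.27 when a library was left out. JAR1 was -0.25 to 0.19 there, and 0.19 without the 2 libraries. With L-Glu, leaving out a library gave OPR3 -0.49 to 0.00 and AOC3 -0.03 to 0.25.

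With the replicate number as a block (4 residual degrees of freedom), 8 of the 9 genes were called for L-Glu in sid2, 9 in Col-0, 1 in the interaction, 0 between genotypes with urea and 3 with L-Glu. Where the numbers paired the libraries it changed no call of the 9 genes. Elsewhere it added AOC1 in Col-0 (adjusted p = 0.019) and AOC1 between genotypes with L-Glu (adjusted p = 0.0351). The shares of LOX4 and AOC2 moved by less than their spread with coding lengths. The planned share of LOX2 was not run. Leaving out both libraries that stood apart, and the share of LOX4, were chosen after seeing the data. Unknown depth limits the values near the pseudocount, such as LOX4 with urea.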
